A study of Mus musculus with 64 samples.

Results

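The genes described here are the mouse Rab GTPases, taken as every symbol of the count table made of Rab, a number and at most 1 further letter. The rule found 59 genes among the 24530 of the table. They were followed through 64 single cells, 32 from the molars, teeth with roots and limited growth, and 32 from the incisors, which keep growing. All cells came from XLacZ4 mice, a line whose lacZ transgene is known for marking the mural cells of vessels, and were sorted after staining with FDG, a substrate that fluoresces once beta-galactosidase has cut it. Each cell was sequenced by Smart-Seq2, which copies whole polyadenylated transcripts without molecular identifiers. The labels name no treatment, other genotype or age and 0 animals. Each tissue is therefore 1 sample whose cells may share an animal, and cells are not replicates. Differences between classes or tissues have no replicate check, were called by size, and carry no test or p-value.

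The labels call every cell a pericyte, the support cell on the outer wall of small vessels, and the data went against that label for most cells. With at least 500 CPM (counts per 1000000 library counts) of the pericyte gene Rgs5 and 0 reads of Csf1r, the receptor for the macrophage growth factor, 15 cells were mural-like, 9 from molar and 6 from incisor. With at least 1 Csf1r read and under 500 CPM of Rgs5, 47 cells were macrophages, 22 from molar and 25 from incisor, and 2 cells fell in neither class. All 13 macrophage markers were read in the macrophages and 2 of 13 in mural-like cells, where their summed level per cell ran from 0 to 33.3 CPM and C1qa, C1qb and Tyrobp were at 0. The lists hold Csf1r and Rgs5, whose values the classes fix, so only their other genes bear on the classes. A marker counted as read with a read in at least 1 cell of the class. All 10 pericyte markers were read in mural-like cells and 6 of 10 in macrophages, where Pdgfrb, Cspg4, Kcnj8 and Higd1b were at 0. The mean share of cells with a read of a pericyte marker was 72.7% in mural-like cells and 3.6% in macrophages. In macrophages the median summed level of the pericyte markers was 0 CPM. In macrophages 6 of 8 osteoclast markers were read, at a median summed level of 193 CPM, and Atp6v0d2 and Oscar were at 0. In mural-like cells 6 of 8 smooth muscle markers were read, at a median of 3395 CPM, and Cnn1 and Lmod1 were at 0. Of the fibroblast markers 5 of 8 were read in mural-like cells, at a median of 2291 CPM. Dcn, Lum and Pdgfra were at 0 there. The part of these other lists in the results was not tested. Depth moved with class: mural-like cells had a median of 2767909 counts and macrophages 1428705, while the median number of genes read was 2529 and 2587. Incisor cell 2 stood apart among the mural-like cells, with 922 genes read, 570 CPM of Rgs5, 15.3% of its counts on Malat1 and 11.9% on Rn45s. It had reads of 2 Rab genes, and 99.6% of its Rab counts were Rab24.

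Rab proteins are small GTPases that mark membranes for transport. Exchange factors load them with GTP, and on the membrane they then recruit effectors such as tethers, motors and adaptors. GTPase activating proteins return them to the GDP form, and GDP dissociation inhibitors extract the prenylated proteins for reuse. In macrophages Rab proteins steer the uptake of particles and the ripening of phagosomes. In vessel wall cells they serve, as in most cells, secretion of matrix, receptor recycling and contact with the surface.

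Of the 59 Rab genes, 48 had a read in at least 1 of the 64 cells and 11 had 0 reads: Rab3b, Rab3c, Rab6b, Rab9b, Rab17, Rab19, Rab26, Rab33a, Rab36, Rab39b and Rab44. A gene counted as measured between classes when its mean over the 4 groups of class and tissue reached 5 CPM, which 39 Rab genes did, 9 more having reads but less than that. Without any thinning of depth, 35 Rab genes were read in both classes. Rab23, Rab37 and Rab40b were read in mural-like cells but in 0 macrophages, and 9 genes were read in macrophages but in 0 mural-like cells. Those 9 were Rab7b, Rab27a, Rab27b, Rab30, Rab32, Rab38, Rab39, Rab40c and Rab42. These counts set 47 macrophages against 15 mural-like cells of unequal depth, so they give no difference between classes. In the classed cells Rab27a and Rab40b had 1 count each, and Rab30, Rab38 and Rab39 were each read in 1 cell. Shares over all genes are given below for thinned cells only.

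A difference between classes was called by size alone. It had to reach 2-fold on log2(CPM + 1) of summed counts in molar and in incisor cells alike, and the share of cells with a read, after thinning each cell to 1040000 reads, had to differ the same way by 20 percentage points. Thinning kept 15 mural-like cells and 40 macrophages, 21 from molar and 19 from incisor, and left out 7 shallower macrophages. By this rule 5 of the 39 measured Rab genes (12.8%) were higher in mural-like cells, against 9.45% of the 9811 genes measured, and 6 (15.4%) were higher in macrophages, against 12%. Both shares of the Rab genes thus lay near those of all genes. The 5 were Rab18, Rab33b, Rab34, Rab37 and Rab3a. The 6 were Rab7b, Rab32, Rab20, Rab22a, Rab43 and Rab8b. The remaining 28 measured genes did not pass in either direction.

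**Figure D1:**
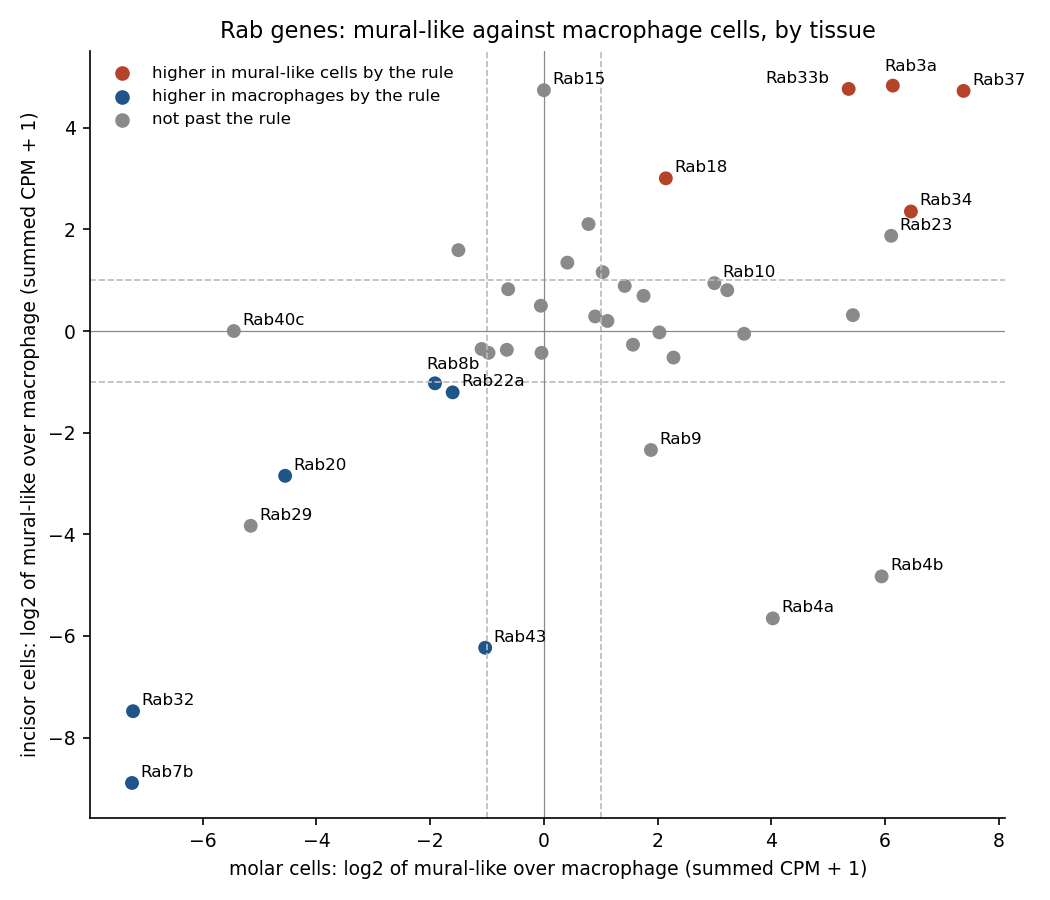
Log2 ratio of mural-like over macrophage cells for the 39 measured Rab genes, in molar cells on the x axis and incisor cells on the y axis, each point 1 gene, with dashed lines at 2-fold. Rab7b and Rab32 lie at the lower left, the 5 mural-like genes at the upper right, and Rab4b and Rab4a point opposite ways in the 2 tissues.

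The sequence before the start is shown for 3 genes past the class rule, Rab32 and Rab20 higher in macrophages and Rab34 in mural-like cells. They were picked as examples, and their printed bases are clear of any exon. Rab33b was picked too but is not printed, as its bases overlap an exon of Gm38160. The other genes past the rule were not examined for printing. The bases are from RefSeq on GRCm38.p6 and are the part of the 250 bases before the RefSeq start that also lies before the GENCODE start of the gene, read along the gene. Rab32 is at chr10:10558266-10558457 and Rab20 at chr8:11478711-11478890, both on the minus strand, and Rab34 is at chr11:78188177-78188426 on the plus strand. Capitals mark a match, on either strand, to 1 of 6 short motifs: GAGGAAGT (a site of ETS factors), CACGTG (E-box), TGANTCA (AP-1), GGGCGG (GC box), CCAAT and TATAAA.
Rab32: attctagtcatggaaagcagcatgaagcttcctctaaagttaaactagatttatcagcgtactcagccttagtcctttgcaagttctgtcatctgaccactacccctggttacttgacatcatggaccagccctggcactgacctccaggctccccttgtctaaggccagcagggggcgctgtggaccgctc
Rab20: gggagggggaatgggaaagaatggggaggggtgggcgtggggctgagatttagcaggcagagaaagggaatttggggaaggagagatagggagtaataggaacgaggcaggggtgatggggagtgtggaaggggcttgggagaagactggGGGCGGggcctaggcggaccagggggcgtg
Rab34: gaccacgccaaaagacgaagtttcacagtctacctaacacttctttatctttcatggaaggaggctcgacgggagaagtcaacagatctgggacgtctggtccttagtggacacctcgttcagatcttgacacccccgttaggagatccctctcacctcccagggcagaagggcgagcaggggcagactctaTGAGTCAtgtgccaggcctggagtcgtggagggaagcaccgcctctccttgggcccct
Rab32 had none of the 6 in the printed bases, Rab20 had a GC box 100 bases before its RefSeq start and Rab34 an AP-1 match 58 bases before. Nearer the RefSeq start, within the 250 bases but outside those printed, lay an ETS-type match for Rab32 and an E-box for Rab20. RefSeq entries were found for 48 of the 59 Rab genes, with 60 start windows in all. A gene was counted where any of its windows held the motif, so a gene can count by a start other than the one printed, as Rab34 does for the GC box. Over the whole 250 bases a GC box stood before 75.0% of these 48 Rab genes, against 35.4% of all 27025 genes of the RefSeq table. Base composition differed as well: the median GC content was 61.6% for the Rab genes and 52.4% for all genes. The median number of CG pairs was 15.75 and 6. The genes of the RefSeq table were not limited to those read here, and no comparison at equal base composition was made. The GC box was before 16 of 20 genes read in both classes, 3 of 3 of those higher in mural-like cells, 4 of 5 of those higher in macrophages and 4 of 8 with 0 reads. The ETS motif was before 2 Rab genes (4.17%, against 2.79% of all genes). CACGTG was before 5 (10.4% against 6.86%), TGANTCA before 2 (4.17% against 7.82%), CCAAT before 24 (50% against 37.5%) and TATAAA before 4 (8.33% against 14.3%). A match describes letters and is no evidence of a bound factor. Rab7b, Rab18 and Rab37 had no entry.

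Among Rab genes of the late endosome and lysosome, Rab7b was the one with the largest difference between classes. Rab7b (ENSMUSG00000052688.12 of GENCODE M21 on GRCm38, chr1:131688695-131715439) encodes a relative of Rab7 known for the endosomal traffic of Toll-like receptors. It was read in 0 of 15 mural-like cells, in 17 of 22 molar macrophages and in 16 of 25 incisor macrophages. Across molar macrophages its level ran from 0 over a median of 29.1 to 777 CPM, and across incisor macrophages from 0 over 166 to 2160 CPM. Summed counts gave 151 CPM in molar and 474 CPM in incisor macrophages, at least 1189-fold and at least 2374-fold above the mural-like cells, where a count of 0 was set to 3 counts over the group. After thinning, 75.0% of macrophages had a read (95% interval 58.8% to 87.3%) and 0 of 15 mural-like cells, where 3 counts of 15 would be 20% and the exact upper limit is 21.8%. These intervals, like the others given, cover counting error only.

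Rab32 (ENSMUSG00000019832.5, chr10:10545002-10558265), placed with regulated secretion and lysosome-related organelles, is known for the biogenesis of melanosomes and for defence at the phagosome. It was likewise read in 0 mural-like cells, and in 14 of 22 molar and 16 of 25 incisor macrophages. Its level in molar macrophages had a median of 31.03 and a highest value of 798 CPM, and in incisor macrophages a median of 32.2 and a highest value of 1691 CPM, with 0 as the lowest in both. The summed level was 149 CPM in molar and 178 CPM in incisor macrophages, at least 1175-fold and at least 889-fold above mural-like cells. A thinned read was found in 62.5% of macrophages. Rab7b or Rab32 was read in 40 of 47 macrophages and both were read in 23.

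These were the 2 Rab genes read in at least 20% of macrophages and in no mural-like cell after thinning (4.35% of the 46 Rab genes with a read in a thinned cell), against 4.39% of 13487 genes. Rab37 was the 1 gene of the opposite kind (2.17%), against 2.35%. Rab38, the close relative of Rab32 in melanosomes, was read in 1 macrophage (incisor cell 26, at 89.1 CPM), and Rab27a, which docks secretory lysosomes, in 1 at 0.85 CPM. Rab7 itself, the organiser of late endosomes and lysosomes, stood at 588 and 523 CPM in molar and incisor mural-like cells and at 610 and 371 CPM in macrophages. As a share of the pair Rab7 and Rab7b, per kilobase of exon, Rab7b made up 12.2% in molar and 41.9% in incisor macrophages.

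Rab20 (ENSMUSG00000031504.6, chr8:11453518-11478710), an endosomal Rab known for phagosome maturation, was read in both classes but mostly in macrophages. In molar cells it ran from 0 over a median of 142 to 1147 CPM in macrophages, and was read in 1 of 9 mural-like cells (molar cell 1, at 114 CPM). In incisor cells it ran from 0 over 261 to 968 CPM in macrophages and was read in 2 of 6 mural-like cells, at 325 CPM in cell 24 and 35.4 CPM in cell 32. Summed, macrophages were 24.9-fold higher in molar (interval 22.4 to 27.8) and 7.32-fold higher in incisor (6.81 to 7.88). Without molar cell 1 the first ratio was at least 2569 and without incisor cell 24 the second was 44.9. On the opposite strand 25.6% of the exon bases of Rab20 overlap the RNA gene E230013L22Rik.

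Rab22a (chr2:173659760-173707343), Rab8b (chr9:66843664-66919687) and Rab43 (chr6:87788853-87812164) passed the rule for macrophages by small margins. Rab22a, which sorts cargo at early endosomes, was read in 9 of 22 molar and 12 of 25 incisor macrophages and in 1 mural-like cell of each tissue. Its summed levels of 80.7 and 202 CPM in macrophages were 3.12-fold and 2.32-fold above the 25.9 and 87.1 CPM of mural-like cells. The call ended on leaving out incisor cell 10, 22, 24, 32, 19 or 23 or molar cell 5, with ratios of 1.67 to 2.003. The ratio was at least 552 in molar without cell 22 and at least 811 in incisor without cell 28, the mural-like cells that held its reads.

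Rab8b, which carries cargo from the Golgi and recycling endosomes to the surface, was the most widely read of the 6, in 18 of 22 molar and 22 of 25 incisor macrophages. It was read in 5 of 15 mural-like cells: molar cell 1 at 554 CPM and incisor cells 22, 28, 24 and 10 at 369, 336, 44.9 and 36.1 CPM. Macrophages were 3.81-fold higher in molar and 2.05-fold higher in incisor. The incisor ratio fell to between 1.63 and 1.995 and ended the call on leaving out incisor cell 2, 10, 24, 32, 1, 4, 6, 9, 15, 18 or 30, rose to 3.11 without incisor cell 22, and the molar ratio became at least 1909 without molar cell 1. With a pseudocount of 10 CPM the call of Rab8b also ended.

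Rab43, a Rab of the endoplasmic reticulum and Golgi, was read in 20 of 47 macrophages, with a median of 0 in molar and 0.89 CPM in incisor cells and highest values of 564 and 1375 CPM. It was read in molar mural-like cells 22 and 4 at 115 and 50.3 CPM and in 0 incisor ones, giving 2.10-fold in molar and at least 371-fold in incisor. Leaving out 1 of 11 molar cells (1, 13, 15, 17, 19, 23, 31, 11, 20, 25 or 2) ended the call, with molar ratios of 1.82 to 2.02, except that without molar cell 2 it was the mural-like cells that were higher, 1.29-fold. Without molar cell 22 the molar ratio was 8.81 and without incisor cell 17 the incisor one was at least 156. Of its 50-base stretches 74.5% also occur in the overlapping gene Gm45140, so its reads may have been split or dropped. The call of Rab43 also ended with a pseudocount of 10 CPM and with a minimum of 5 reads in a cell.

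**Figure D2:**
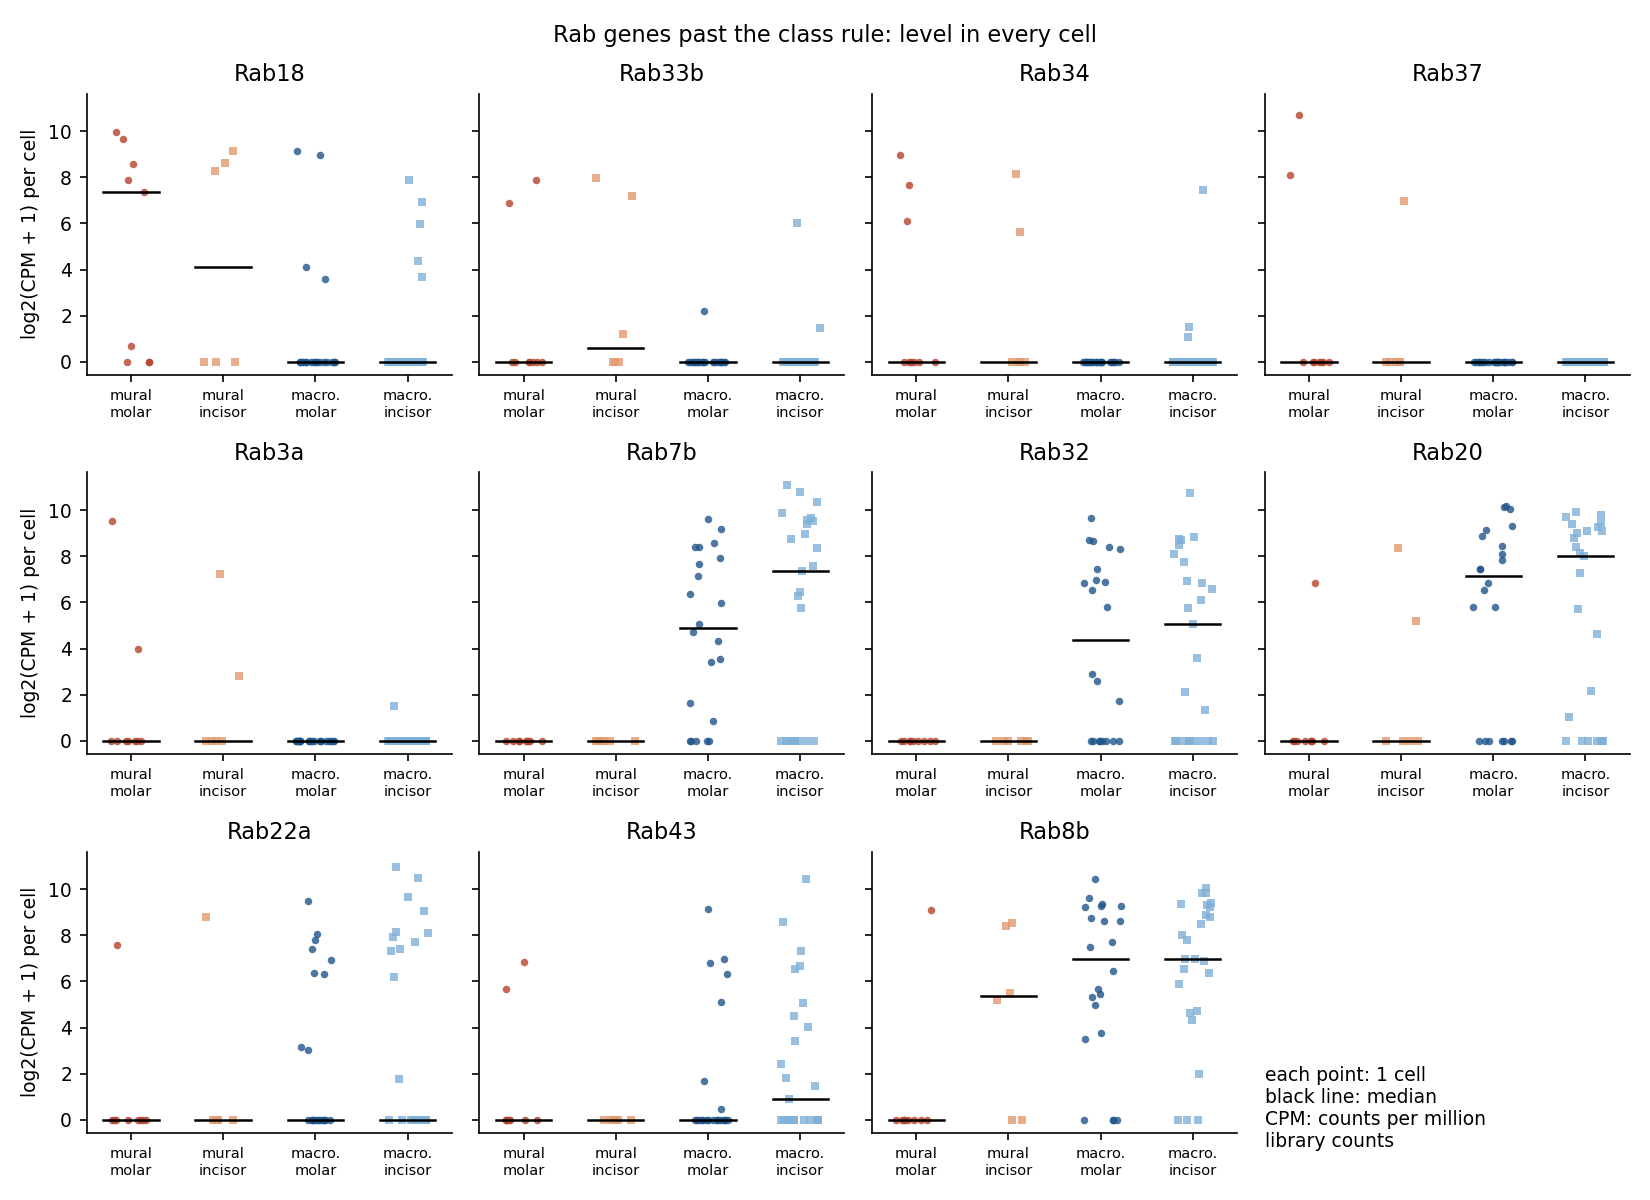
Level of the 11 Rab genes past the class rule in every cell, as log2(CPM + 1) on the y axis, for mural-like cells (red and orange) and macrophages (dark and light blue) of molar (circles) and incisor (squares), with the median of the log2 values as a black line. Rab7b, Rab32 and Rab20 are spread over many macrophages, while Rab37 rests on 3 mural-like cells and Rab3a on 4.

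Of the 5 genes higher in mural-like cells, the one read in the most of them, 9 of 15, was Rab18 (ENSMUSG00000073639.6, on chromosome 18), a Rab of the endoplasmic reticulum and of lipid droplets. In molar mural-like cells it ran from 0 over a median of 164 to 994 CPM and was read in 6 of 9, and in incisor ones from 0 over 152 to 567.6 CPM, read in 3 of 6. It was read in 4 of 22 molar macrophages, up to 557 CPM, and in 5 of 25 incisor macrophages, up to 233 CPM, with medians of 0. The summed levels were 294 against 65.7 CPM in molar, 4.47-fold (interval 4.27 to 4.69), and 241 against 29.2 CPM in incisor, 8.26-fold (7.73 to 8.83). Without molar cell 32, the macrophage with the highest level, the molar ratio was 10.6, and without incisor cell 1 the incisor ratio was 18.1. After thinning 60.0% of mural-like cells and 22.5% of macrophages had a read.

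Rab33b (chr3:51483920-51496232), a Golgi Rab that binds the autophagy protein Atg16l1, was read in 5 of 15 mural-like cells. Its levels there were 235 and 118 CPM in molar cells 22 and 31 and 247, 146 and 1.29 CPM in incisor cells 28, 10 and 32. In macrophages it was read in 3 of 47, at 64.6, 3.56 and 1.78 CPM. Summed, mural-like cells were 324-fold higher in molar, on 5 counts in macrophages (interval 139 to 1001), and 41.3-fold in incisor. Without molar cell 22 the molar ratio was 117, without incisor cell 28 the incisor ratio was 18.4 and without incisor cell 23 it was 977. On the opposite strand 18.7% of its exon bases overlap Gm38160.

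Rab34 (chr11:78188430-78192193), which acts at the Golgi, in macropinocytosis and in the formation of cilia, was read in molar mural-like cells 13, 22 and 17 at 504, 204 and 68.6 CPM. Incisor mural-like cells 32 and 10 had 282 and 49.1 CPM. Molar macrophages had 0 reads, giving at least 1022-fold. Incisor macrophages had reads in 3 of 25, mainly cell 25 at 175 CPM, giving 5.43-fold. That incisor difference turned around without incisor cell 32 (macrophages 1.09-fold higher) and was 494-fold without incisor cell 25, and the molar ratio was at least 468 without molar cell 13.

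Rab37 (chr11:115091431-115162236) and Rab3a (chr8:70754679-70758677), both known for the release of secretory granules and vesicles, rested on few cells. Rab37 was read in molar cells 4 and 31 at 1655 and 277 CPM and in incisor cell 32 at 123 CPM, and in 0 of 47 macrophages. The ratios were at least 1953 in molar and at least 334 in incisor. Leaving out any of these 3 cells ended the call: the molar ratio was at least 432.5 without cell 4 and at least 1771 without cell 31, and no ratio can be given in incisor without cell 32. Rab3a was read in molar cells 15 and 19 at 741 and 14.98 CPM, in incisor cells 22 and 28 at 150 and 6.01 CPM, and in 1 macrophage at 1.90 CPM, on 3 counts. The molar ratio was at least 818 and the incisor ratio 389 (interval 132 to 1892). Leaving out any of these 4 cells ended the call: the molar ratio was at least 21.9 without cell 15 and at least 899 without cell 19, and the incisor ratio 19.4 without cell 22 and 465.7 without cell 28.

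Counted per cell, 12 of 15 mural-like cells had a read of at least 1 of the 5 genes higher in their class, with at most 4 in a cell, as did 13 of 47 macrophages, with at most 2. Of the 6 genes higher in macrophages, 46 of 47 macrophages had at least 1 and a median of 4, and 8 of 15 mural-like cells had at least 1, with a median of 1 and at most 2. Since the genes were chosen by these cells, the counts describe how the reads were spread and test nothing. Calls of Rab7b, Rab32, Rab20, Rab18 and Rab33b held each time 1 of the 62 cells was left out and in all 10 other settings tried.

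Genes read in at least 20% of thinned cells of each class were counted as shared. There were 22, or 47.8% of the 46 Rab genes read in thinned cells, against 23.6% of 13487 genes, and 56.4% of the 39 measured, against 32.0% of 9811. The shared genes were Rab1a, Rab1b, Rab2a, Rab4b, Rab5a, Rab5b, Rab6a, Rab7, Rab8a, Rab8b, Rab10, Rab11a, Rab11b, Rab12, Rab14, Rab18, Rab20, Rab21, Rab24, Rab28, Rab31 and Rab35. Of the genes placed in the recycling endosome 9 of 13 were shared, of the early endosome 6 of 9, of the secretory route 5 of 16, of the late endosome 2 of 6, and of regulated secretion 0 of 11. These totals hold genes with 0 reads too: those with a read numbered 13, 8, 11, 5 and 7 in the same order. No share over all genes was taken on this base. Rab1a and Rab1b, which act between the endoplasmic reticulum and the Golgi, were read in 95% and 62.5% of macrophages and 66.7% and 73.3% of mural-like cells. Rab5a, which fuses early endosomes, was read in 42.5% of macrophages and 73.3% of mural-like cells, and Rab5c in 55.0% and 13.3%.

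Of the other shared genes, Rab11a, the organiser of the recycling endosome, stood at 202 and 133 CPM in molar and incisor mural-like cells and at 208 and 180 CPM in macrophages. Rab2a, which acts between the Golgi and the endoplasmic reticulum, stood at 267 and 421 CPM in mural-like cells and at 201 and 165 CPM in macrophages. Rab12, of recycling endosomes, stood at 108 and 65.6 CPM in mural-like cells and at 52.4 and 28.8 CPM in macrophages, 2.07-fold and 2.28-fold higher in mural-like cells, but the share of cells with a read was 33.3% there and 45.0% in macrophages. Rab35, of fast recycling, stood at 65.6 and 30.9 CPM in mural-like cells and at 12.7 and 44.8 CPM in macrophages. Rab28 stood at 72.1 and 95.5 against 32.7 and 83.1 CPM, and Rab21, of early endosomes and integrin traffic, at 29.6 and 46.0 against 15.4 and 37.5 CPM. Reads of Rab28 and Rab35 lay in few cells. All Rab28 reads of molar mural-like cells came from cell 15, and 97.8% of the Rab35 reads of molar macrophages came from cell 7.

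By place, the 16 genes of the endoplasmic reticulum and Golgi summed to 1549 and 1530 CPM in molar and incisor mural-like cells and to 773 and 708 CPM in macrophages, and 3 of the 9 measured were higher in mural-like cells and 1 in macrophages, counts to set against 9.45% and 12% of all genes. The 6 of late endosomes and lysosomes summed to 695 and 638 CPM in mural-like cells and to 805 and 1037 CPM in macrophages. The 13 of recycling endosomes summed to 1704 and 1319 against 903 and 1434 CPM, so their direction differed between tissues. Of the 11 genes of regulated secretion 7 were read and 4 had 0 reads, and Rab3d, Rab27a, Rab27b and Rab38 were under the filter. Rab3d was read in molar mural-like cell 31 and 3 incisor macrophages. Rab30 was read in molar cell 8 alone, Rab39 in molar cell 16 alone, Rab40b in molar cell 15 alone and Rab42 in 2 macrophages. Rab40c, a subunit of a ubiquitin ligase, was read in 4 molar macrophages, with 93.1% of its reads in cell 25.

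**Figure D3:**
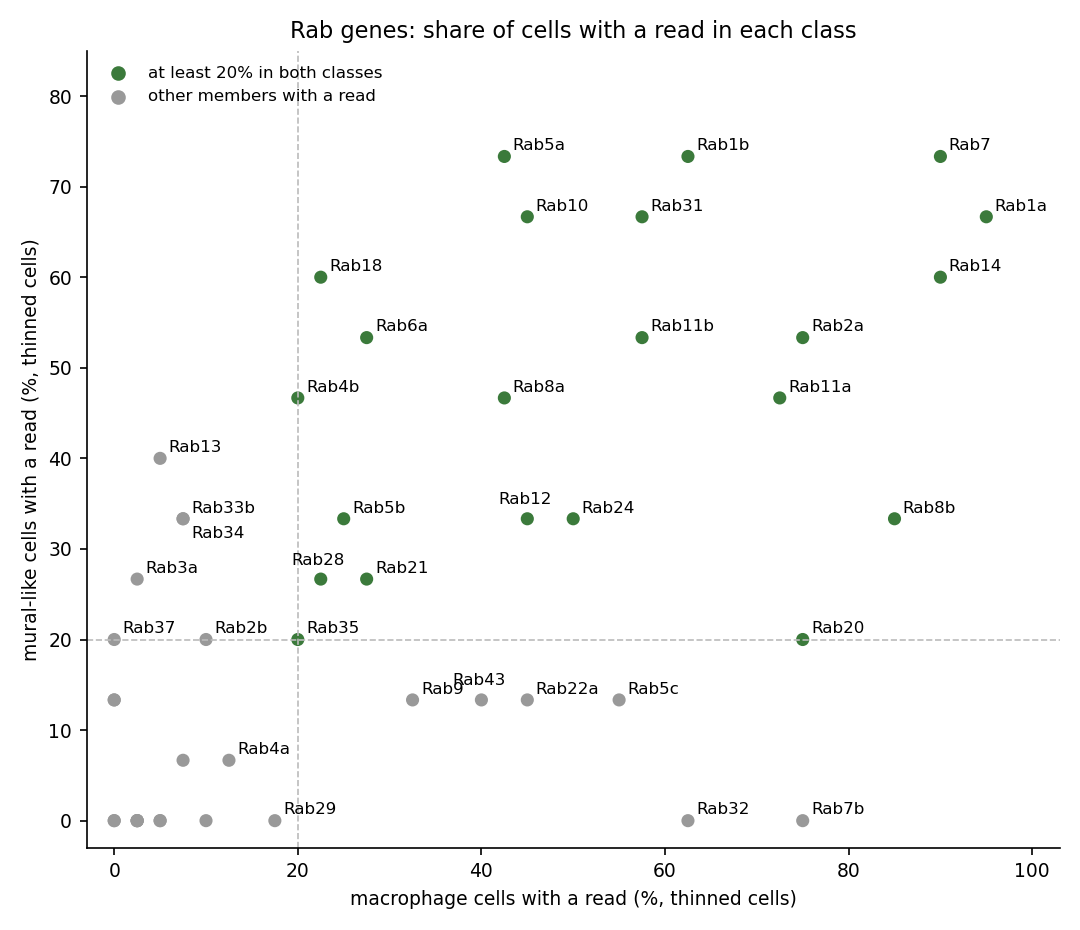
Share of thinned cells with a read of each Rab gene, in 40 macrophages on the x axis and 15 mural-like cells on the y axis, with dashed lines at 20% and shared genes in green. Rab7b and Rab32 lie on the x axis at 75.0% and 62.5%, and Rab7, Rab1a and Rab14 are high in both classes.

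Per kilobase of exon and averaged over the 4 groups, Rab7 was the highest Rab gene at 200.4 CPM per kilobase, followed by Rab20 (148), Rab24 (127), Rab2a (124), Rab1b (117), Rab31 (93.4), Rab10 (73.9), Rab11a (60.5), Rab1a (51.2) and Rab4b (43.8). The order differed by class. Rab20 took rank 1 in macrophages, at 272 CPM per kilobase, and took rank 19 in mural-like cells, at 24.1. Rab1b took rank 2 in mural-like cells, at 163 CPM per kilobase, and rank 5 in macrophages, at 69.8. Rab7 took rank 1 in mural-like cells, at 213, and rank 2 in macrophages, at 188. In single cells the most abundant Rab gene by CPM was Rab31, an early endosomal and Golgi Rab, in 6 of 15 mural-like cells. In macrophages it was Rab24, an atypical Rab linked to autophagy, in 10 of 47, and Rab7 and Rab7b in 6 each. Exons of Rab24 overlap Prelid1 on the opposite strand over 62.4% of their length, and the counting is not stated to use strand, so reads of the 2 genes cannot be told apart there. Of the 50-base stretches of Rab7, 11.2% recur in Rab7-ps1 or Gm9874.

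Close relatives were compared as shares of a pair per kilobase of exon. Rab8b made up 26.2% of Rab8a plus Rab8b in molar and 53.1% in incisor mural-like cells, and 80.2% and 65.7% in macrophages. Rab11b, the relative of the recycling Rab11a, made up 28.3% and 40.7% of its pair in mural-like cells and 12.4% and 21.5% in macrophages. Rab5c made up 9.29% and 25.4% of Rab5a plus Rab5c in mural-like cells and 22.2% and 66.0% in macrophages. For these 3 pairs both tissues had the same direction between classes. Rab1b made up 80.6% and 70.8% of Rab1a plus Rab1b in mural-like cells and 44.2% and 72.7% in macrophages, so the direction differed between tissues. Rab2b made up at most 3.97% of its pair with Rab2a, in molar macrophages.

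Several Rab genes had a larger ratio of mural-like cells over macrophages in molar than in incisor, a difference between tissues that was not tested. Rab10, which delivers membrane to the surface, stood at 401 against 49.3 CPM in molar (8.12-fold) and at 387 against 201 CPM in incisor (1.93-fold, short of the rule). With means over cells in place of summed counts its log2 ratios were 3.49 and 1.22, and it passed the rule. Rab31 stood at 618 against 150 CPM in molar and at 325 against 332 CPM in incisor. Rab6a, which acts in traffic through the Golgi, stood at 214 against 22.1 CPM in molar and at 209 against 119 CPM in incisor, and Mrpl48 lies opposite 18.99% of its exon bases. Rab13, a Rab of junctions and the actin cortex, was read in 6 of 15 mural-like cells and 3 of 47 macrophages, at 135 against 2.15 CPM in molar and 11.5 against 9.03 CPM in incisor. Rab23, which regulates Hedgehog signalling at the cilium, was read in 1 mural-like cell of each tissue (516 CPM in molar cell 1, 19.3 CPM in incisor cell 24) and in 0 macrophages, at least 801-fold and at least 35.0-fold, and missed the rule by its share of cells, 13.3% against 0%. Rab29, in contrast, was read in 9 of 47 macrophages and 1 of 15 mural-like cells; its share difference of 17.5 percentage points missed the rule.

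Over the 39 measured Rab genes the median log2 ratio of mural-like over macrophage was 1.03 in molar, where that of all genes was -0.08, and 0.20 in incisor, where it was -0.04. With size factors by the median of ratios the median shift over all genes was -0.25 in molar and -0.23 in incisor. The median of all genes was then -0.29 in molar and -0.20 in incisor, and that of the Rab genes 0.77 and 0.00. The summed level of the 59 genes was 5547 CPM in molar mural-like cells and 3770 CPM in molar macrophages, a ratio of 1.47, and 4656 and 4880 CPM in incisor, a ratio of 0.954. Per cell the sum ran from 3531 over a median of 5361 to 7188 CPM in molar mural-like cells and from 1447 over 3635 to 6569 CPM in molar macrophages, so the ranges overlapped. In incisor it ran from 2568 over 3972 to 6449 CPM and from 1622 over 4539 to 9486 CPM. The mean log2 ratio over tissues was 0.24 and turned to -0.00263 with size factors, so no direction is given for the sum. The number of Rab genes read per thinned cell had a median of 15 in both classes, from 2 to 23 in mural-like cells and from 9 to 23 in macrophages.

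**Figure D4:**
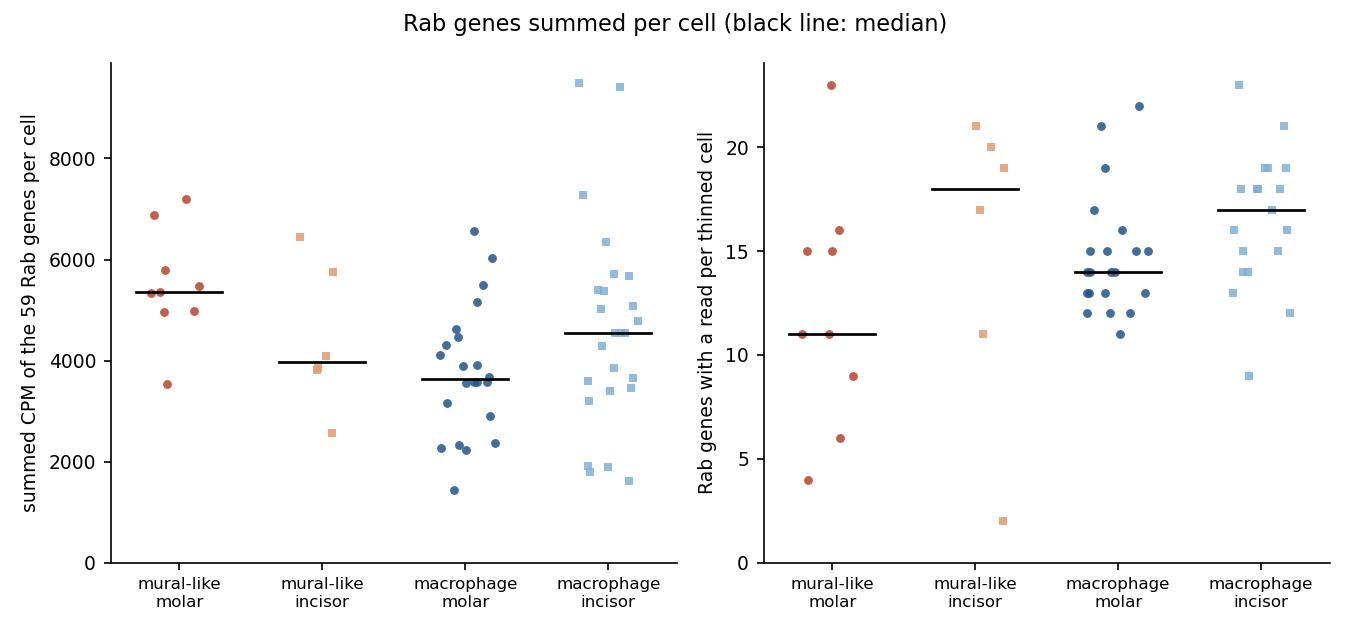
Summed CPM of the 59 Rab genes per cell (left) and number of Rab genes with a read per thinned cell (right), by class and tissue, each point 1 cell and the black line the median. Molar mural-like cells have a median sum of 5361 CPM against 3635 CPM in molar macrophages, and the groups overlap in both panels.

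Between tissues, macrophages of the incisor had the higher summed level for most Rab genes. Of 36 Rab genes measured in macrophages, 25 were lower in molar and 11 (30.6%) higher, where 46.6% of all 8668 genes were higher in molar. The median log2 ratio of molar over incisor was -0.79, against -0.12 over all genes. At 2-fold or more without the share of cells, 16 Rab genes (44.4%) were higher in incisor macrophages, against 31.5% of all genes, and 6 (16.7%) in molar macrophages, against 25.2%. With the share difference of 20 percentage points, 3 (8.33%) were higher in incisor macrophages, against 4.16%, and 1 (2.78%) in molar macrophages, against 2.41%. Those 3 were Rab4b, Rab8a and Rab9, and the 1 was Rab5a.

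Rab4b, which returns receptors quickly to the surface, was read in 1 of 22 molar macrophages, cell 30 at 42.0 CPM, and in 10 of 25 incisor macrophages, up to 920 CPM in cell 18. The summed levels were 2.997 and 95.5 CPM, 31.9-fold higher in incisor, and at least 1045-fold without molar cell 30. Of its 50-base stretches 58.1% recur in other genes, above all the overlapping Gm21983. Rab9, which acts from late endosomes to the Golgi, was read in 5 molar macrophages, up to 111 CPM, and in 9 incisor ones, up to 609 CPM, and was 11.8-fold higher in incisor, 21.95-fold without molar cell 9. Rab8a, a Rab of surface delivery and cilia, was read in 7 molar macrophages, up to 640 CPM, and 12 incisor ones, up to 1185 CPM, and was 2.32-fold higher in incisor. The call of Rab8a ended without incisor cells 16, 21 or 25 (1.60-fold, 1.92-fold and 1.94-fold), and the ratio was 9.62 without molar cell 8. The calls of Rab8a and Rab9 also ended without thinning. Shares after thinning rested on 21 of 22 molar but 19 of 25 incisor macrophages, as the shallower cells were left out.

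Rab5a, the early endosomal Rab, was read in 12 molar macrophages, up to 3654 CPM in cell 6, and in 7 incisor ones, up to 310 CPM in cell 1. Its summed levels of 178 and 47.4 CPM made it 3.77-fold higher in molar, and 6.63-fold without incisor cell 1. A thinned read was found in 52.4% of molar and 31.6% of incisor macrophages, close to the limit of 20 percentage points, and leaving out any 1 of 24 macrophages ended the call, at ratios of 3.22 to 3.91. Over all cells left out in turn the log2 ratio was lowest, 1.405, without molar cell 6. That cell held 29.8% of the Rab5a reads of molar macrophages. It had 514492 counts, 1118 genes read and 17.4% of its counts on Malat1, and 81.7% of its Rab counts were Rab5a. Rab7b was 3.15-fold higher in incisor macrophages and Rab10 4.08-fold, and neither passed the share rule. Rab20, Rab32 and Rab8b lay within 1.19-fold between the tissues' macrophages.

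**Figure D5:**
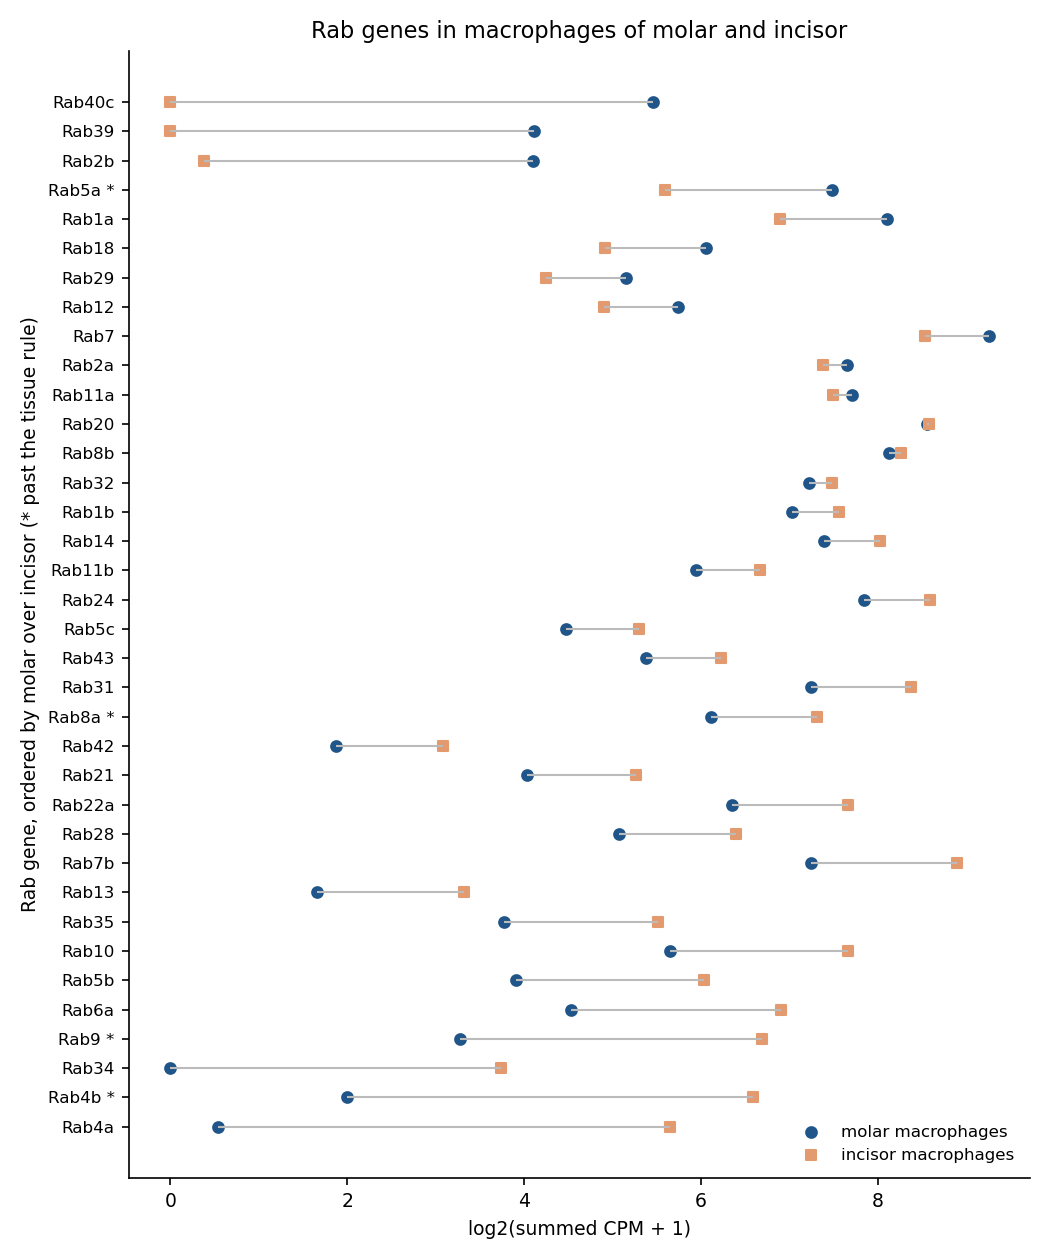
Summed level of the 36 Rab genes measured in macrophages, as log2(CPM + 1) on the x axis, for molar (blue circles) and incisor (orange squares), ordered by the ratio; stars mark genes past the tissue rule. Incisor values lie to the right for 25 of 36 genes, and the starred genes are Rab5a, Rab8a, Rab9 and Rab4b. Molar values were the higher ones for 30.6% of the Rab genes and 46.6% of all genes measured.

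Within mural-like cells the groups were small, 9 cells against 6, and calls rested on single cells. Of 35 Rab genes measured, 2 (5.71%) were higher in molar, against 8.32% of 7923 genes, and 5 (14.3%) were higher in incisor, against 17.2%. Rab4b was read in 5 molar mural-like cells at 735, 689, 439, 299 and 242 CPM and in incisor cells 2 and 22 at 11.4 and 7.73 CPM, 102-fold higher in molar. Its direction was thus opposite to that in macrophages; the difference between the classes was not tested. That call ended without any 1 of molar cells 1, 4, 15, 17 or 31 or incisor cells 10, 24, 28 or 32, at ratios of 80.8 to 102, and the ratio was 212 without incisor cell 22. Rab43 was higher in molar, at least 97.2-fold, and its call ended without molar cell 4 (at least 83.8) or 22 (at least 23.2).

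The 5 higher in incisor mural-like cells were Rab14, Rab15, Rab20, Rab24 and Rab8b. Rab14, of the Golgi and recycling endosomes, was read in 4 of 9 molar and 5 of 6 incisor cells, at 84.8 and 193 CPM (2.27-fold). Its call ended without molar cell 17 or incisor cells 24 or 28 (1.92-fold to 1.999-fold), and without molar cell 31 the ratio was 4.99. Rab15, which acts in receptor recycling, was read in incisor cells 24 and 32 at 134 and 38.3 CPM and in 0 molar cells, at least 208-fold, and its call ended without incisor cell 24 (at least 72.6). Rab24 was 2.84-fold higher in incisor, but 69.5% of its incisor reads came from cell 2, the cell that stood apart, and without that cell molar was 1.06-fold higher. The call of Rab24 also ended without incisor cells 10 (2.95-fold) or 28 (3.002-fold), and the ratio was 6.55 without molar cell 15. Rab20 was 3.47-fold higher in incisor, 3.76-fold and short of the rule without cell 32, turned to 1.77-fold higher in molar without incisor cell 24, and was at least 358-fold without molar cell 1. Rab8b was 2.05-fold higher in incisor, and its call ended without molar cells 4, 13, 15, 17, 19, 22, 23 or 31 or incisor cells 22 or 28, at ratios of 1.35 to 1.89; without molar cell 1 the ratio was at least 1028. It also ended with size factors and with a pseudocount of 10 CPM.

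The proteins that act on Rab GTPases were read alongside. Of the GTPase activating proteins 24 of 34 were measured, 8 (33.3%) were higher in macrophages, against the 12% of all genes, and 0 in mural-like cells, against 9.45%. The 8 were Rab3gap2, Tbc1d4, Tbc1d5, Tbc1d8, Tbc1d9, Tbc1d14, Tbc1d16 and Tbc1d23. Rab3gap2 stood at 27.3 and 0 CPM in molar and incisor mural-like cells and at 208 and 147 CPM in macrophages, and Tbc1d4, which acts on Rab10 and Rab8a, at 0 and 0 against 177 and 135 CPM. Of the exchange factors 26 of 38 were measured, 5 (19.2%) were higher in macrophages, against 12% of all genes, and 2 (7.69%) in mural-like cells, against 9.45%. The 5 were Rin2, Rab3il1, Madd, Dennd1a and Dennd4a, and the 2 were Dennd2a and Trappc4. Rabgef1, which activates Rab5 proteins, did not pass, at 0.042 and 302 CPM in mural-like cells and 239 and 335 CPM in macrophages. Dennd5a stood at 206 and 152 CPM in mural-like cells and at 209.5 and 151 CPM in macrophages, and the activating protein Tbc1d10a at 137 and 57.4 against 269 and 300.1 CPM.

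Of the effectors 36 of 55 were measured, 7 (19.4%) were higher in macrophages, against 12% of all genes, and 1 (2.78%) in mural-like cells, against 9.45%. The 1 was Osbpl1a, which binds Rab7. Eea1, the tether that Rab5 brings to early endosomes, stood at 15.4 and 20.6 CPM in mural-like cells and at 474 and 230 CPM in macrophages. Rilpl2, a Rab binding protein of the RILP family, stood at 0 and 2.40 against 373 and 308 CPM, and the motor Myo5a at 5.70 and 0 against 346 and 284 CPM. The others of the 7 were Rabep1, Plekhm2, Ehbp1l1 and Gcc2. Of the prenylation and recycling factors 10 of 11 were measured, and 2 (20%), Gdi2 and Chm, were higher in macrophages, against 12% of all genes, and 0 in mural-like cells, against 9.45%. Gdi2, a GDP dissociation inhibitor, stood at 117 and 53.0 CPM in mural-like cells and at 314 and 441 CPM in macrophages. These shares describe lists chosen with earlier results known and were not tested.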

How the data were processed

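The data are whole-number counts per gene for 64 single cells, deposited by the authors. Trim Galore, HISAT2 2, Seurat 3 and the build mm10 are named in the submitters' processing notes, without a role or order. The counter, its annotation and its use of strand are not given in sources used here. The deposited counts were used without further change. Another 124 columns of the table matched no labelled cell and were not used.

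Counts were summed per class and tissue, divided by the summed library totals to give CPM, and compared with a pseudocount of 1 CPM. Total counts ran from 514492 to 3171734 per classed cell. Each cell was thinned once to 1040000 reads, the 10th percentile of depth rounded down to a multiple of 10000, and 7 macrophages below it were left out of shares only. A share of 0 allows up to 20% of 15 mural-like cells and up to 7.5% of 40 macrophages by 3 counts, and up to 21.8% and 8.81% by the exact interval. Ratios against 0 counts use 3 counts over the group and are lower bounds. Intervals are at the 95% level, exact Poisson for ratios of counts and Clopper-Pearson for shares; PCR reads are not independent molecules. Within a class the tissue rule needed 2-fold, 20 percentage points and a mean of 5 CPM over the 2 groups. Lengths, positions and shared 50-base stretches came from GENCODE M21 on GRCm38. Lists of regulators and markers, like the Rab genes and the classes, were chosen with earlier results of these data known. Rab genes were named when they passed a class, tissue or one-class rule, were among the 10 highest per kilobase, belonged to counts of 5 or fewer, had 0 reads or had a well-known place in the cell; regulators when past the class rule or among the 3 of a list with most counts. Rab3d, Rab4a, Rab12, Rab28, Rab29, Rab2b, Rab27b, Rab30, Rab39, Rab40b, Rab40c and Rab42 were chosen after their values were seen. Doublets were not called, and the 2 cells in neither class were left out of comparisons. Alternatives were size factors, means over cells, other pseudocounts, filters, thinning and classes, and each cell left out. The class rule of the calling script was run on simulated counts with planted changes. The tissue, shared and one-class rules were not checked in that way. Analyses used Python 3.11.15, NumPy 2.4.6, pandas 2.3.3, SciPy 1.17.1 and matplotlib 3.10.9. The values of 1 regulator are not reported here.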

Additional observations from a re-analysis of the deposited data

How the results depend on the processing

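Over the settings tried, the number of Rab genes higher in mural-like cells ran from 4 to 7, the number higher in macrophages from 4 to 7 and the number shared from 20 to 23. By fold alone, 6 Rab genes were higher in molar and 16 in incisor macrophages and 10 in molar mural-like cells. Thinned to 500000 reads, the counts were 2 for molar and 1 for incisor macrophages; without thinning, incisor macrophages had 1; with stricter classes, molar macrophages had 0. With at least 5 reads needed in a cell, 2 Rab genes were read in mural-like cells alone. Leaving out 1 cell at a time gave 3 to 6 genes higher in mural-like cells (3 without incisor cell 32), 4 to 6 in macrophages, 0 to 2 in molar and 2 to 4 in incisor macrophages, 0 to 3 in molar and 2 to 6 in incisor mural-like cells, 0 to 2 read in mural-like cells alone, 2 in each case read in macrophages alone, and 20 to 22 shared. The mean log2 ratio of the summed level was 0.18 to 0.28 across those sets and -0.00263 with size factors. Molar over incisor in mural-like cells turned to 0.75 on the log2 scale for Rab20 without incisor cell 24 (range -5.73 to 0.75) and to 0.087 for Rab24 without incisor cell 2 and with stricter classes (range -2.69 to 0.087). Thinning to 500000 reads ended the calls of Rab3a, Rab8a and Rab9, and stricter classes ended those of Rab5a and Rab8a. The stricter classes held 14 mural-like cells and 46 macrophages, as incisor cells 2 and 25 left their classes. The calls of Rab5a and Rab8a also ended when incisor cell 25 alone was left out. The cause of these changes was not tested. A second thinning draw was chosen after seeing the data. No paired analysis was possible because the cell numbers of molar and incisor name cells, not shared animals. The 15 mural-like cells limit what can be said of genes read in few of them.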

Other observations

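The 2 cells in neither class entered no comparison. Incisor cell 13 had both 2301 CPM of Rgs5 and 839 Csf1r reads, and 18 Rab genes were read in it. Its highest Rab genes were Rab4b at 738 CPM, Rab2a at 646 CPM and Rab14 at 640 CPM. Of the genes higher in macrophages it had Rab20 at 555 CPM, Rab7b at 507 CPM and Rab32 at 163 CPM, and of the 5 higher in mural-like cells it had 0 reads. Rab25, known from epithelial cells, had its reads among the 64 cells in this cell alone, at 0.70 CPM.

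Molar cell 10 had 39.4% of its counts on Amelx, the enamel matrix gene of ameloblasts, and 0 reads of Rgs5 and Csf1r. In it 13 Rab genes were read, led by Rab11b at 560 CPM, Rab14 at 320 CPM and Rab2a at 311 CPM. Rab18 stood at 213 CPM, Rab27a at 39.2 CPM and Rab34 at 24.03 CPM, while Rab7b, Rab32 and Rab20 were at 0.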
